A study of Mus musculus with 6 samples.

Results

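Chromatin accessibility was examined along 5 Mb of mouse chromosome 17, from 40 to 45 Mb of mm10 (GRCm38), in preadipocytes of the inguinal white fat pad. The stretch runs from the Crisp and Esp genes through Ptchd4, Opn5, Tnfrsf21, Ankrd66 and Rcan2 to Runx2 and the first part of Supt3. ATAC-seq, in which the transposase Tn5 cuts and tags open DNA, had been carried out on undifferentiated, confluent cultures (day 0) of 3 wild type (WT) and 3 double knockout (DKO) replicates. DKO cells carry germline deletions of both Hmgn1 and Hmgn2, and the labels give C57BL/6 as the strain of both genotypes. The labels do not say whether each culture came from its own mouse, so the spread between replicates may be partly technical. A line of a peak list is 1 summit, and all lines with a summit inside the stretch were taken. This gave 3026 of the 1796755 lines on chromosomes 1 to 19 and X. Lines whose intervals shared at least 1 bp were merged across libraries into 493 sites, out of 267419 in the genome. The stretch was chosen with the difference between WT and DKO already known, so all values of that contrast are given here as a description, and nothing rests on a p of theirs.

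HMGN1 and HMGN2 are abundant proteins that bind nucleosomes with no preference for a DNA sequence and affect how compact chromatin is. Open sites outside promoters are often enhancers, short stretches where transcription factors displace nucleosomes and from which they act on genes nearby or far away. Mesenchymal progenitors such as preadipocytes share many of these sites with the bone lineage, whose master regulator is RUNX2.

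Each value below is the fold enrichment given by the peak caller, that is, the pileup at the summit plus 1 over the local background of the same library plus 1. The pileup counts reads, each taken here as 1 Tn5 cut. Rank 1 is the line with the smallest p of a library, and each list was limited to about 300000 lines. A site that is missing from a list was therefore below the limit of that list, not shown to be closed. The limit is one of p, so over a high local background a missing site can hold more cuts than the weakest listed line. The weakest line of the stretch rested on 11, 10 and 12 cuts in WT replicates 1, 2 and 3 and on 10, 11 and 8 cuts in DKO replicates 1, 2 and 3. The most frequent background was between 2.05 cuts (DKO replicate 3) and 2.58 cuts (DKO replicate 1). Intervals for counting error were not computed, as total read numbers were not analysed here. Among 10 promoters of preadipocyte and stromal markers, 9 were listed in all 6 libraries, and Ly6a was listed in 1. Of the 9, Pdgfrb was lower in every DKO library (10.9, 9.55 and 9.57 in WT; 7.24, 9.22 and 8.39 in DKO). Of 22 promoters of immune, endothelial, epithelial, muscle, glial, mesothelial and mature fat cell markers, 4 were listed in all 6 libraries (Cd68, Pecam1, Kdr and Tek) and 11 in none. Some of these differed between the genotypes, in both directions. Over the genome, 14.6% of the sites in all 6 lists were lower and 2.0% higher in every DKO library. Of all sites of the genome, 0.780% were on the 3 DKO lists and on no WT list. The promoter of the endothelial gene Cdh5 was on the 3 DKO lists (3.91, 7.09 and 4.26) and on no WT list. The endothelial promoters of Pecam1 (16.9, 12.2 and 17.2 in WT; 11.1, 11.8 and 10.3 in DKO) and Tek (18.2, 15.4 and 16.7 in WT; 13.5, 15.3 and 14.3 in DKO) were lower in every DKO library, and that of the macrophage gene Cd68 was higher (4.79, 5.73 and 5.38 in WT; 5.93, 6.26 and 5.78 in DKO). Whether other cell types had a part in the results was not tested. As to the deleted genes, a promoter site of Hmgn2 had fold enrichments of 7.89, 7.53 and 9.45 in WT and no line in DKO, whereas the Hmgn1 promoter was listed in all 6 libraries.

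Selected sites that differed are shown first by their sequence, read from the plus strand of GRCm38. They were picked because each is the strongest site of 1 genotype, or the site with the largest difference, in its gene neighbourhood. Capitals mark matches on either strand to AP-1 (TGANTCA), RUNX (TGTGGT), TEAD (GGAATG) or CEBP (TTNCNNAA), which were searched separately and may overlap. The UTR site is shown by 29 bases around its AP-1 match and the others by a longer run around the summit.
Ankrd66 UTR, listed in DKO only, chr17:43534835-43534863: ggaagagtggtTGAGTCAactcctgtgaa
Ankrd66 intron, listed in WT only, chr17:43536924-43537024: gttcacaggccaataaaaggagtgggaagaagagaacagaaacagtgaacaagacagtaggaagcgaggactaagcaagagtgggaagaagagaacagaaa
Upstream of Tnfrsf21, lower in DKO, chr17:43000775-43000875: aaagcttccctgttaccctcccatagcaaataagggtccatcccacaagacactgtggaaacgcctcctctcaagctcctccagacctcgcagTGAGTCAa
Opn5 intron, lower in DKO, chr17:42576887-42576987: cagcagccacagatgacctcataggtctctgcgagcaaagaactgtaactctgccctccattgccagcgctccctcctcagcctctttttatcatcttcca
Opn5 intron, higher in DKO, chr17:42580780-42580880: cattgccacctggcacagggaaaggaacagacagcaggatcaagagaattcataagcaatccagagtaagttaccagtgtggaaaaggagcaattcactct
Downstream of Ptchd4, listed in DKO only, chr17:42515328-42515428: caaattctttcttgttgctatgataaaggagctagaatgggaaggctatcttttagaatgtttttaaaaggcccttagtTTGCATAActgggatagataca
Upstream of Enpp5, higher in DKO, chr17:44061713-44061813: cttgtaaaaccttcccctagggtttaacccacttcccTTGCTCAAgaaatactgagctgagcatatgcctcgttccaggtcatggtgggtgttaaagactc
Runx2 intron, listed in WT only, chr17:44701106-44701206: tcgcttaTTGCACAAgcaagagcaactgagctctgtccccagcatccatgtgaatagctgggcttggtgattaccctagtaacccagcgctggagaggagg
Runx2 intron, listed in DKO only, chr17:44728616-44728716: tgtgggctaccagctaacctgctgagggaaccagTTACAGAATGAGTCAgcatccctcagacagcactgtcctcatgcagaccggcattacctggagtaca

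These letters were common in open sites in general. Within 100 bp on each side of the summit, AP-1 was found in 28.0% of the 493 sites of the stretch and in 26.1% of the sites of the genome. RUNX matched 18.7% of sites in the stretch and 18.7% in the genome, TEAD 18.1% and 15.5%, and CEBP 41.6% and 39.9%. The longer CTCF consensus matched 3.04% of the sites in the stretch and 2.24% in the genome. Of the 18 sites listed in 1 genotype, 5 matched AP-1 (27.8%), 5 RUNX (27.8%), 4 TEAD (22.2%), 9 CEBP (50%) and 0 CTCF. A match is a description of the sequence and does not show that a factor was bound.

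Sites were unevenly placed along the stretch. The 1 Mb steps from 40 Mb onward held 24, 29, 89, 158 and 193 sites, and 278 of the 493 summits lay in the body of a protein-coding gene. The longest gap without a site spanned 432.9 kb (chr17:40284325-40717249), which contains Crisp1, whose product coats sperm, and several Esp genes for pheromone peptides. Of 37 protein-coding genes, 24 had a site in the gene body and 13 had none, among them Pgk2 and Crisp3, which are genes of the male tract, and Mep1a, which encodes a gut and kidney protease. Runx2 held 76 sites, Rcan2 45, Supt3 24, Adgrf5 24, Ptchd4 21, Clic5 19 and Cyp39a1 15. By annotation, 259 sites lay in introns, 213 between genes, 12 in UTRs, 7 in coding exons and 2 in introns of non-coding genes.

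Most sites were shared or were weak. All 6 libraries listed 165 sites (33.5%), against 37.0% over the genome, and a single library listed 171 (34.7%). Of these single-library sites, 59 came from DKO replicate 3, whose list reached down to the fewest cuts, and 33 from WT replicate 2. The remaining 4 libraries gave between 13 and 29 each.

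The sites nearest to both edges of the stretch were weak. The nearest site inside 40 Mb (chr17:40188960-40189155) and the nearest outside it (chr17:39985835-39985954) were both listed in WT replicate 2 alone, each at 3.13. At 45 Mb, the last site inside (chr17:44984551-44984623) was again listed in WT replicate 2 alone at 3.13. The first outside (chr17:45019184-45019271), in an intron of Supt3, was listed at 2.98 in WT replicate 2 and at 3.39 in DKO replicate 1.

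**Figure D1:**
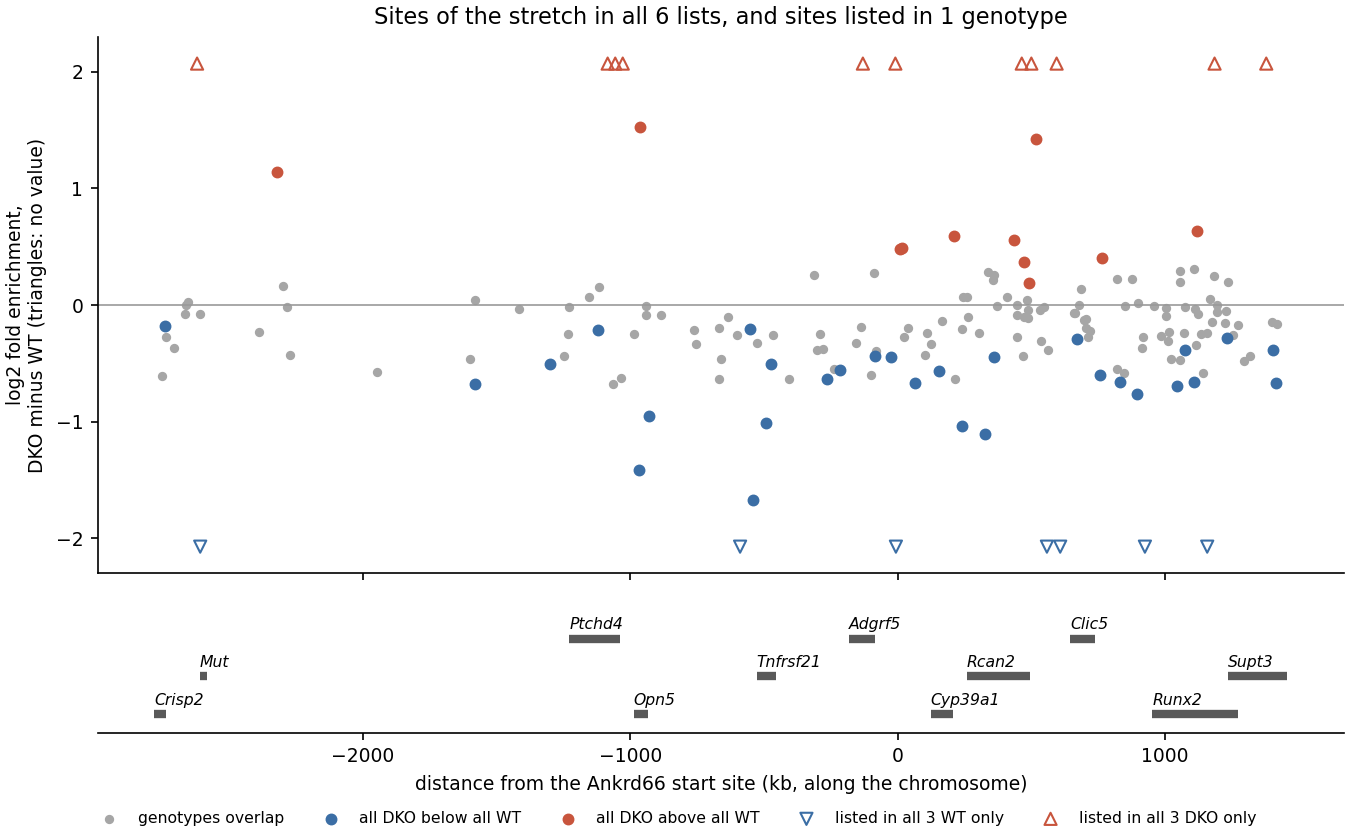
Log2 fold enrichment in DKO minus WT (y axis, means of 3 libraries) of the 165 sites in all 6 lists, against distance in kb from the Ankrd66 start site, with gene bodies below. Open triangles mark the 7 sites listed in WT only and the 11 listed in DKO only, which have no difference value; the lowest point (-1.67) lies upstream of Tnfrsf21 and the highest (1.53) in Opn5.

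Sites listed in 1 genotype were found from Cenpq to Supt3. Of the 493 sites, 7 (1.42%) were on all 3 WT lists and on none of DKO (WT-only), and 11 (2.23%) were on all 3 DKO lists and on none of WT (DKO-only). These counts depended on the limit of the lists and on single libraries, with 3 and 7 among the 100000 best lines, 4 and 4 among the 50000 best, 8 to 15 WT-only and 14 to 18 DKO-only without 1 library, and 14 WT-only where a library had to cover at least 50% of a site. Over the genome, 0.860% of sites were WT-only and 0.780% were DKO-only. Together they made up 3.65% of the stretch, 4.01% of the adjoining 5 Mb on the left (35 to 40 Mb) and 2.31% of the adjoining 5 Mb on the right (45 to 50 Mb). Among 492 bins of 5 Mb with at least 100 sites, the stretch had the fourth highest share of DKO-only sites, the left flank the second highest and the right flank was at position 27. For WT-only sites the stretch was at position 107. In the left flank, 12 of the 16 one-genotype sites lay between 36 and 37 Mb, where the H2-T genes of the major histocompatibility complex are. In the stretch they were spread out, with 2, 0, 4, 3 and 9 sites in the 5 steps of 1 Mb.

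Of the one-genotype sites, 10 lay in introns, 6 between genes, 1 in a UTR and 1 in a coding exon. Within 1 kb of a start site lay 1 of 18 (5.56%), against 7.91% of all 493 sites. DKO-only lines ranged in fold enrichment from 3.28 to 13.7, and WT-only lines from 2.99 to 9.93. In these bulk libraries, a site that is open in fewer cells and a site that is less open in each cell cannot be told apart.

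Ankrd66, which encodes a protein with ankyrin repeats, carried the strongest of them. Its body (chr17:43534188-43543639, minus strand) held 2 sites, and each was listed in 1 genotype only. The site in the UTR (chr17:43534626-43535241), 8730 bp from the start site, had fold enrichments of 13.3, 13.7 and 11.9 in the DKO libraries and no line in WT. It rested on 55, 54 and 43 cuts and ranked 34132, 36446 and 33188 in the DKO lists, well inside the limit of the lists. The other site (chr17:43536937-43537148), in an intron, was listed at 3.80, 4.84 and 5.58 in WT and was absent from the DKO lists. Only 1695 bp lay between them. Within 100 bp of its summit the UTR site held the AP-1 letters printed above and a CEBP match that the printed bases do not hold, while the intronic site held none of the motifs searched. No line was found within 1 kb of the Ankrd66 start site in any library.

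The neighbours of Ankrd66 had modest differences. Between Ankrd66 and Pla2g7, 2 sites in all 6 lists were higher in every DKO library than in any WT library. Over the genome, 2.0% of the sites in all 6 lists were higher and 14.6% were lower in this way, and by rank 7.51% were better and 11.2% worse in every DKO library. The first (chr17:43551205-43551850) had 3.73, 3.70 and 4.40 in WT and 5.59, 6.24 and 4.70 in DKO. The second (chr17:43557905-43558208) had 4.67, 3.70 and 4.40 in WT and 5.03, 7.09 and 5.90 in DKO. On the side of Mep1a, a site (chr17:43518678-43518902) went the other way, with 8.18, 5.69 and 8.22 in WT and 5.03, 5.38 and 5.57 in DKO. The promoter of Pla2g7, the platelet-activating factor acetylhydrolase, was at 5.82, 5.73 and 5.82 in WT and at 4.26, 7.24 and 3.60 in DKO, so that the genotypes overlapped.

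Runx2, on the minus strand (chr17:44495987-44814797), had the most sites of any gene. Of its 76 sites, 33 were in all 6 lists and 19 in 1 list. The median log2 difference of the 33 sites (DKO minus WT) was -0.14, with 25 of them below 0 and a range from -0.69 to 0.63. In fold enrichment, DKO lay above WT in every library at 1 of them and below at 4, which is close to the shares over the genome given above. By rank, 4 were better and 2 worse in every DKO library, beside 7.51% and 11.2% over the genome. One of the 4 sites lower in fold enrichment is the promoter site of Supt3 (chr17:44776663-44777387), which lies inside the Runx2 gene on the other strand. It had 19.3, 18.0 and 20.1 in WT and 16.5, 16.0 and 14.8 in DKO. The site that was higher in DKO (chr17:44663752-44664489) had 4.83, 3.98 and 5.50 in WT and 6.03, 7.63 and 8.53 in DKO. An intron site (chr17:44650310-44650809) 12942 bp away was lower in DKO, at 11.4, 10.5 and 13.5 in WT and 7.49, 9.02 and 6.07 in DKO.

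Of the 5 promoter sites of Runx2, the 2 given here overlapped between genotypes. A weak site 156 bp from 1 of its start sites (chr17:44736370-44736595) had 3.35, 3.41 and 3.54 in WT and 3.09, 3.46 and 3.36 in DKO. The site at the most distal start (chr17:44814644-44815346) had 11.9, 10.2 and 11.2 in WT and 10.2, 9.01 and 10.4 in DKO. The site best ranked over all libraries in Runx2 (chr17:44500146-44501019), in an intron, had 19.9, 17.6 and 18.9 in WT and 18.1, 17.9 and 20.2 in DKO. Within the gene, 2 sites were listed in 1 genotype. The WT-only site (chr17:44700979-44701291) had 7.39, 5.90 and 7.98, and lay 387 bp from a site that all 6 libraries listed. The DKO-only site (chr17:44728580-44728814) was weaker, with 3.91, 3.40 and 4.26.

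**Figure D2:**
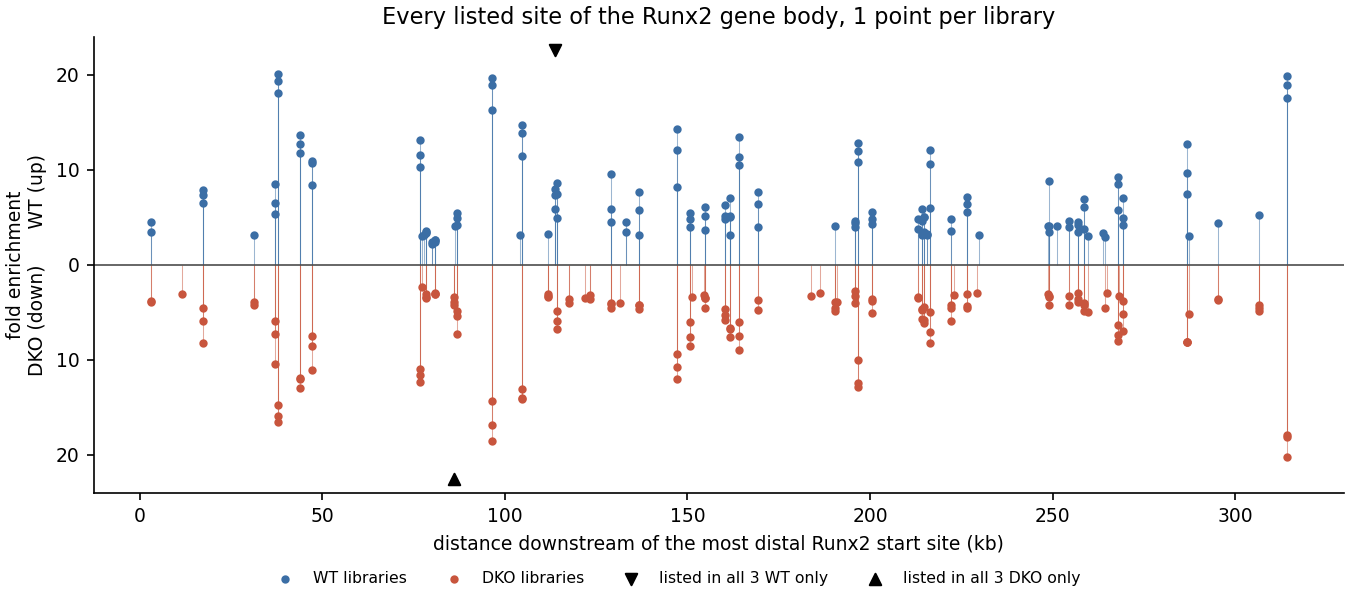
Fold enrichment of every listed site in the Runx2 gene body, with WT libraries drawn upward in blue and DKO libraries downward in red, against distance in kb from the most distal start site; 1 point is 1 library. Black triangles mark the WT-only and the DKO-only site, and the best ranked site, at the far right, reaches 17.6 to 19.9 in WT and 17.9 to 20.2 in DKO.

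The genes beside Runx2 were mixed. Supt3, which encodes a subunit of the SAGA coactivator, had 9 sites in all 6 lists, of which 2 were lower and 0 higher in every DKO library (2 worse and 0 better by rank), and a DKO-only intron site (chr17:44921846-44922126) at 4.47, 3.97 and 3.60. Clic5, a chloride intracellular channel protein, had 10 sites in all 6 lists, of which 1 was lower and 0 higher (none apart by rank). Over the genome, 14.6% of such sites were lower and 2.0% higher, and by rank 11.2% were worse and 7.51% better. The counts of Supt3 and Clic5 are too small to read anything from them. The ectonucleotidase genes Enpp4 and Enpp5 had promoter sites in all 6 lists. The Enpp4 promoter had 18.1, 12.2 and 18.2 in WT and 10.6, 14.0 and 12.2 in DKO, and the Enpp5 promoter 14.7, 12.6 and 19.9 against 13.1, 14.2 and 10.5. Enpp4 also held a WT-only intron site (chr17:44101532-44101739) with 2.99, 4.11 and 4.42. In front of Clic5, a DKO-only site (chr17:44137861-44138206) with 6.17, 7.79 and 5.90 was followed after 13037 bp by a WT-only site (chr17:44151244-44151409) with 3.80, 4.27 and 7.05. A last WT-only site between genes (chr17:44468088-44468371) had 4.09, 3.42 and 4.70.

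Upstream of Enpp5, a site of all 6 lists was among those with the largest differences. It lies 17050 bp from the start site (chr17:44061031-44062160) and had 5.55, 3.42 and 5.87 in WT and 11.0, 14.6 and 13.4 in DKO, a log2 difference of 1.42. Its pileup was 18, 11 and 19 cuts in WT and 64, 84 and 65 cuts in DKO. In the DKO lists it ranked 33931, 19681 and 17718, and in the WT lists between 157107 and 240255.

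In fold enrichment as listed, the largest log2 difference among the 165 shared sites was a lower enrichment upstream of Tnfrsf21, the gene of a death receptor. The site (chr17:43000245-43001233) lies between Cd2ap and Tnfrsf21, 15730 bp from the Tnfrsf21 start site. Fold enrichment was 20.8, 20.2 and 22.6 in WT and 5.87, 7.65 and 6.55 in DKO, a log2 difference of -1.67. In cuts this was 216, 177 and 279 in WT against 20, 26 and 19 in DKO. Its rank was 1371, 1067 and 1305 in WT and 132757, 99015 and 99369 in DKO. By mean rank it was number 3 of the 165 shared sites in WT and number 98 in DKO.

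Other sites around Tnfrsf21 also had less enrichment in DKO, the more frequent direction over the genome. Further from the gene, a WT-only site (chr17:42954045-42954401), 62291 bp from the start site, had 9.93, 5.69 and 7.34. Next to the site of largest difference, another (chr17:42990018-42990503) had 19.7, 20.3 and 24.6 in WT and 18.9, 19.0 and 18.1 in DKO, which do not overlap but differ by only -0.20 on the log2 scale. In an intron (chr17:43052577-43053191) fold enrichment was 11.1, 7.68 and 15.0 in WT and 4.19, 5.39 and 6.88 in DKO. The promoter of the gene (chr17:43016341-43017056) was at 15.4, 17.0 and 16.7 in WT and at 10.4, 15.4 and 14.0 in DKO, where the lowest WT value was just under the highest DKO value. Of 3 sites of the gene body in all 6 lists, 2 were lower in every DKO library in fold enrichment and 1 was worse in rank. Over the genome, these shares were 14.6% and 11.2%, and 74469 of 98927 shared sites had a log2 difference below 0. Cd2ap, an adaptor between membrane proteins and actin, had 9 sites, of which 6 were on 1 list.

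Opn5, which encodes the light-sensing protein neuropsin, held a site that was higher and a site that was lower in DKO side by side. The site that was higher in DKO (chr17:42580299-42581158) had 5.05, 4.01 and 6.52 in WT and 13.4, 16.1 and 14.7 in DKO, a log2 difference of 1.53. This was the highest difference of all sites in all 6 lists of the genome. The site that was lower (chr17:42576692-42577272) had 13.9, 11.2 and 16.2 in WT and 5.37, 3.93 and 6.37 in DKO, a log2 difference of -1.41. Both are intronic, and 3026 bp lie between them. Another site, 1787 bp from the start site (chr17:42612891-42613505), had 21.2, 11.7 and 19.4 in WT and 7.55, 9.64 and 9.18 in DKO. Opn5 had no site in any library within 1 kb of its start site.

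Ptchd4, a gene for a patched domain protein, had DKO-only sites, while its promoter and its best intron site overlapped between genotypes. Of its 4 sites in all 6 lists, 1 intron site was lower in every DKO library, beside 14.6% of such sites over the genome. This site (chr17:42424181-42424644) had 8.76, 7.68 and 8.22 in WT and 6.71, 7.37 and 7.21 in DKO, while its ranks overlapped. The best intron site of Ptchd4 (chr17:42387678-42388424) had the best mean rank of the stretch, with 26.5, 22.6 and 24.3 in WT and 25.0, 24.4 and 27.7 in DKO. The promoter had 15.9, 11.1 and 15.6 in WT and 13.6, 14.2 and 13.8 in DKO. Of the DKO-only sites, 2 were intronic (chr17:42458934-42459215 and chr17:42486651-42487616), with 3.91, 4.25 and 3.93 and with 3.36, 5.39 and 4.26. The third, past the end of the gene (chr17:42515002-42515683), was the second best ranked DKO-only site, with 8.67, 9.98 and 6.88 on 30, 35 and 20 cuts.

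Rcan2, a regulator of the phosphatase calcineurin, had sites of both kinds. Of its 21 sites in all 6 lists, 3 were higher and 2 lower in fold enrichment in every DKO library, and 6 were better and 2 worse in rank. Over the genome, these shares were 2.0%, 14.6%, 7.51% and 11.2%, in the same order. The median log2 difference was -0.01. The lower intron site with the larger difference (chr17:43869351-43869988) had 11.6, 8.54 and 15.2 in WT and 5.87, 6.52 and 3.93 in DKO. The strongest of the 3 higher sites (chr17:44034990-44035428) had 11.9, 12.7 and 14.1 in WT and 15.1, 14.3 and 14.6 in DKO. A DKO-only intron site (chr17:44007484-44007784) had 6.71, 7.52 and 4.26, and a second one past the gene (chr17:44043410-44043639) had 4.75, 3.40 and 3.28. Between Cyp39a1 and Rcan2, a site (chr17:43754271-43755174) had 11.9, 8.82 and 9.59 in WT and 15.0, 16.5 and 14.1 in DKO. Closer to Rcan2, another (chr17:43785597-43786028) had 6.24, 7.78 and 8.59 in WT and 4.26, 3.29 and 3.43 in DKO.

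The other gene groups of the stretch had few sites in all 6 lists. Those apart in fold enrichment were lower in DKO, the more frequent direction over the genome too (14.6% lower and 2.0% higher). Slc25a27, a mitochondrial carrier, and Cyp39a1, an oxysterol hydroxylase of bile acid synthesis, share a promoter site that had 23.0, 15.7 and 25.0 in WT and 15.0, 18.0 and 16.8 in DKO. Of 2 shared sites in Cyp39a1, 1 was apart (chr17:43699369-43699686), with 8.47, 6.55 and 8.81 in WT and 5.31, 6.24 and 4.59 in DKO. In Pla2g7, 1 of 3 was apart (chr17:43606740-43606989), with 7.30, 6.55 and 7.04 in WT and 5.03, 5.10 and 3.28 in DKO. The adhesion receptor genes Adgrf1, Adgrf2, Adgrf4 and Adgrf5 had no promoter site in all 6 lists. In Adgrf1, 1 of 2 shared sites was apart (chr17:43277072-43277781), with 10.6, 8.91 and 12.3 in WT and 7.55, 7.37 and 5.57 in DKO. In Adgrf5, 1 of 5 was apart (chr17:43458683-43458929), with 8.19, 6.56 and 8.24 in WT and 5.93, 6.06 and 4.97 in DKO. Of all sites of Adgrf5, 13 of 24 were listed in 1 library, and a DKO-only intron site (chr17:43413434-43413626) had 3.36, 3.40 and 3.60. Of the cysteine-rich secretory protein genes, only Crisp2 had sites, and its promoter had 9.93, 6.55 and 13.8 in WT and 6.71, 6.80 and 5.57 in DKO. Of its 3 shared sites, 1 intron site was apart (chr17:40802765-40803434), with 14.6, 14.6 and 15.2 in WT and 13.6, 13.6 and 12.1 in DKO.

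Cenpq, a kinetochore protein gene, and Mut, which encodes methylmalonyl-CoA mutase, share a promoter site (chr17:40934404-40935127) that was among the 3 best ranked of the stretch. It had 22.8, 21.0 and 25.3 in WT and 21.2, 22.5 and 21.8 in DKO. A WT-only site (chr17:40935179-40935363) with 6.07, 3.33 and 3.46 lay 52 bp from its edge. In a coding exon of Cenpq (chr17:40923471-40923808) a DKO-only site had 3.36, 6.80 and 5.90. Far from protein-coding genes, 288721 bp from the Cenpq start site, a site (chr17:41223578-41223854) had 4.09, 3.13 and 6.46 in WT and 9.51, 10.5 and 8.85 in DKO.

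**Figure D3:**
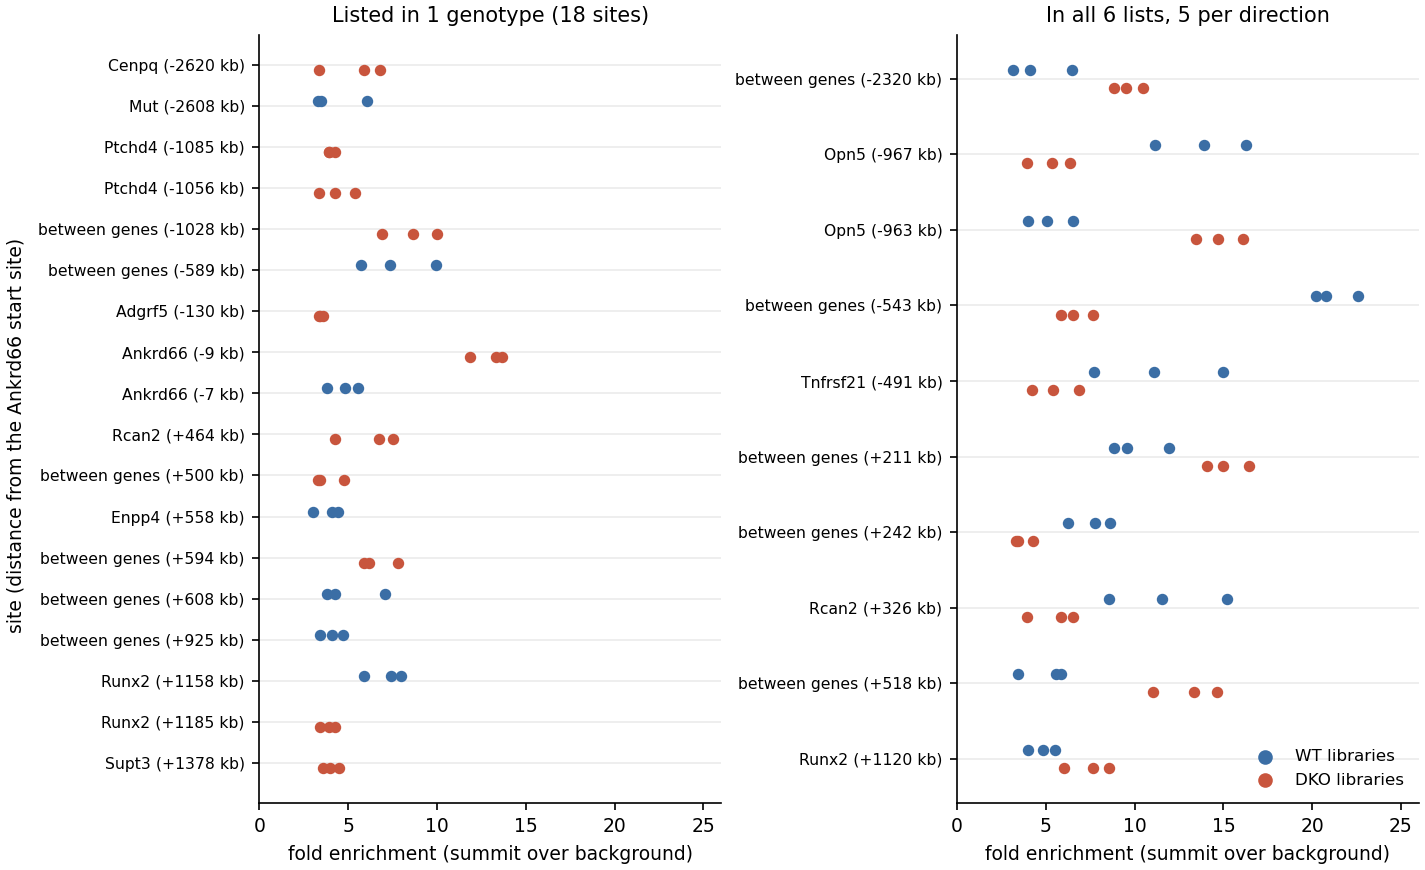
Fold enrichment in each library (x axis; WT blue, DKO red) of the 18 sites listed in 1 genotype (left) and of the 5 sites per direction with the largest difference among sites in all 6 lists without overlap (right). Rows are named by gene and by distance in kb from the Ankrd66 start site; the Ankrd66 site listed in DKO only (13.3, 13.7 and 11.9) is the highest on the left, and the site upstream of Tnfrsf21 has the widest gap on the right.

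Promoter and distal sites of the stretch were also counted separately. Over all shared sites of the genome, 14.6% were lower and 2.0% higher in fold enrichment, and 11.2% worse and 7.51% better in rank. Such shares are not given for promoters and distal sites of the genome alone, so nothing is read from these counts. Of the 19 sites of all 6 lists within 1 kb of a start site, 1 was lower and 0 were higher in every DKO library, and log2 differences ran from -0.63 to 0.20. Of the other 146 sites, 28 were lower and 11 higher, and differences ran from -1.67 to 1.53. By rank, 3 promoter sites were worse and 3 better in every DKO library, as were 25 and 17 of the other sites. The single promoter in fold enrichment was that of Supt3, given above.

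Over all 165 shared sites, 29 (17.6%) had a lower and 11 (6.67%) a higher fold enrichment in every DKO library. Over the genome, these shares were 14.6% and 2.0%. By rank, 28 sites (17.0%) were worse and 20 (12.1%) better in every DKO library, against 11.2% and 7.51% over the genome. In the left flank, 11.9% were lower and 3.98% higher in fold enrichment, and in the right flank 11.5% and 1.47%. Since the stretch was chosen on this contrast, nothing is read from these shares.

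**Figure D4:**
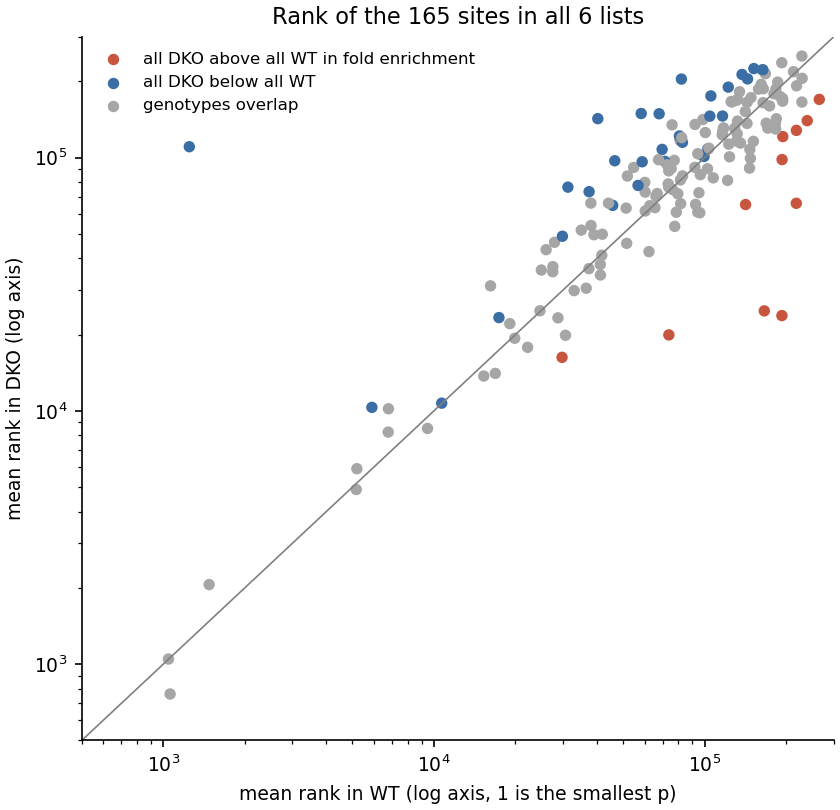
Mean rank in DKO against mean rank in WT (log axes, 1 is the smallest p) of the 165 sites in all 6 lists, colored by whether fold enrichment was apart between genotypes. Most points follow the diagonal, the site upstream of Tnfrsf21 stands alone at the upper left (number 3 by mean rank in WT and number 98 in DKO), and the sites in Opn5 and upstream of Enpp5 lie far below the diagonal.

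As a whole, the stretch had somewhat more lines and worse ranks in DKO, as had the left flank in lines and the genome in rank. The WT libraries had 499, 489 and 490 lines there (493 ± 5.51, SD, n = 3) and the DKO libraries 512, 508 and 528 (516 ± 10.6, SD, n = 3), which do not overlap. The difference depended on weak lines, as it was 0.667 with the 100000 best lines of each library and -8 with the 50000 best. The left flank had the same difference of means, 23.3 lines, also without overlap. In the right flank, WT libraries had 1011 ± 29.6 lines (SD, n = 3) and DKO libraries 1063 ± 18.9 lines (SD, n = 3), and the genotypes overlapped. Median rank over the 165 shared sites was 85054, 89183 and 82876 in WT and 95817, 90026 and 89565 in DKO, again without overlap. The difference of 6098 ranks compares with 3423 over the genome, 1620 in the right flank and -321 in the left flank. Over the genome, mean median rank was 86922 in WT and 90345 in DKO, also without overlap. Taken relative to the genome, the difference in the stretch was 2675 ranks. Median fold enrichment was 8.46, 7.12 and 10.6 in WT and 7.26, 7.59 and 6.59 in DKO, so that WT replicate 2 lay among the DKO libraries.

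**Figure D5:**
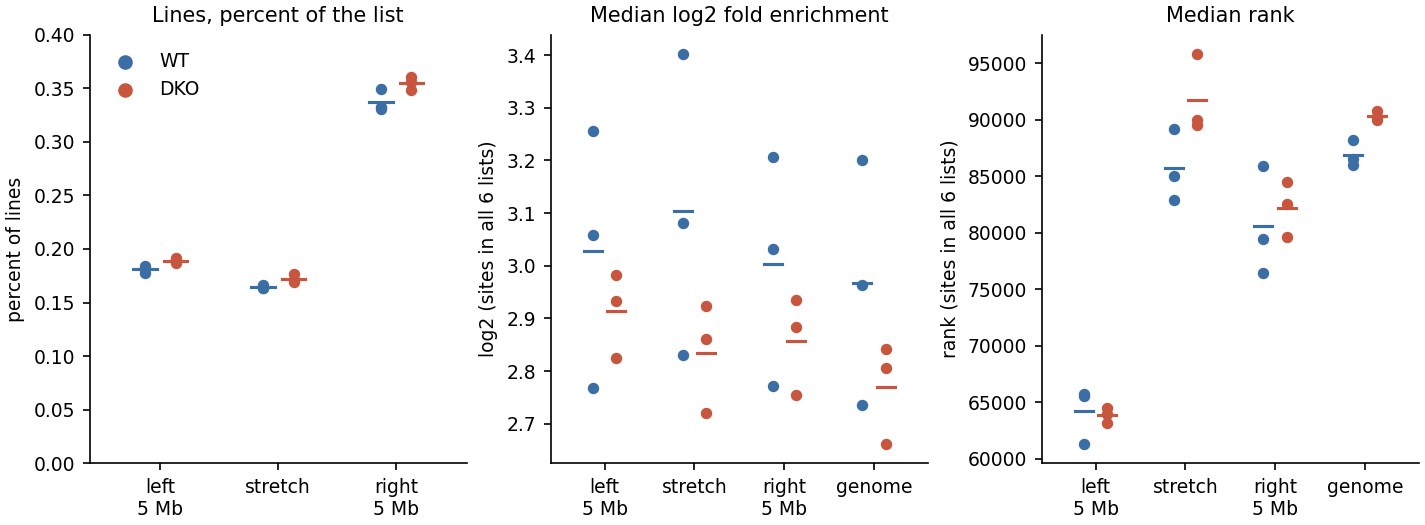
Lines as percent of the list, median log2 fold enrichment and median rank of sites in all 6 lists, for the left 5 Mb, the stretch, the right 5 Mb and the genome; points are libraries (WT blue, DKO red) and bars are means of 3. Only the first y axis starts at 0. In the stretch the genotypes are apart in lines and in rank and overlap in fold enrichment. They are also apart in lines in the left 5 Mb and in rank over the genome.

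A fit across the genome gave a second description of the same contrast. Windows reached 250 bp to each side of a summit, and log2 fold enrichment was compared with limma after quantile normalization. Of 316 windows of the stretch, 5 were higher and 1 was lower in DKO with an adjusted p below 0.05, while over the genome 0.0229% and 0.0340% of 179254 windows passed. As the stretch was chosen on this contrast, these counts support nothing. The windows are sites described above. For those in all 6 lists, the log2 differences were -1.52 upstream of Tnfrsf21, 1.68 in Opn5 and 1.59 upstream of Enpp5. The other 3 windows, in Ankrd66, past Ptchd4 and between Enpp4 and Clic5, were listed in DKO only. They were kept through the DKO libraries alone and their WT values were set to the lowest fold enrichment of the list, so that they had to differ, and no difference is given for them. No window passed when the replicate number entered as a block (33 lower and 35 higher had an unadjusted p under 0.05), and between 0 and 1 passed with 1 library left out. The window in Ankrd66 was the one that passed without WT replicate 2 and without WT replicate 3.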

How the data were processed

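The authors trimmed paired-end reads with cutadapt 1.18, aligned them to mm10 with Bowtie2 2.3.4.3, removed duplicates and mitochondrial reads, and called peaks with MACS2 in each library; the names of the lists give a p of 0.01 and a limit of 300000 lines. The deposited columns used were fold enrichment (a ratio), p and q as −log10 values and the summit offset; the authors' score column was not used for any result. The members, gene lists and motifs were chosen with earlier results of these data known. Named genes and sites were taken by rule: one-genotype sites (the 8 best ranked per direction; all 18 are named), the 5 largest differences per direction without overlap, the 3 best ranks, windows past the threshold, and genes with such sites or promoter sites; sites named beyond these were chosen after their values were seen. Each site was given the highest fold enrichment and best rank per library. Cuts at summits were recovered from fold enrichment and p by the Poisson model of MACS2, whole within 0.001 for 99.9% or more of lines. Annotation was GENCODE M21 (basic); promoters were within 1 kb of a start site. One gene of the cell type marker lists is not reported here and was left out of their counts. Windows were kept where at least 2 libraries had a summit with q under 0.01. limma 3.58.1 in R 4.3.3 was used with a trend and Benjamini-Hochberg adjustment over all windows, after a test on simulated data.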

Additional observations from a re-analysis of the deposited data

How the results depend on the processing

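Counts were sensitive to the limit of the lists. With the 100000 best lines of each library, 3 sites were WT-only, 7 DKO-only and the mean number of lines differed by 0.667; with the 50000 best these were 4, 4 and -8. Counting a library only where it covered at least 50% of a site gave 14 WT-only sites. Without 1 library, WT-only sites numbered 8 to 15, DKO-only sites 14 to 18, the difference in lines was 17.3 to 27.3, in median rank 5328 to 8137 and in median log2 fold enrichment -0.390 to -0.122. Median rank differed by 2675 relative to the genome and by 1080 over the 7 sites with a single line per library. Lower and higher windows (limma) numbered 4 and 6 with median centring, 1 and 1 without scaling, 6 and 14 without the trend, and 5 and 5 over windows with a summit in all 6 libraries. Except in the last setting, these counts include windows listed in 1 genotype. Their missing values were set to the lowest fold enrichment of the list, so that they had to differ. Without 1 library there were 0 lower and 0 to 1 higher windows, the latter in Ankrd66 and listed in DKO only. With the replicate number as a block there were 0 lower and 0 higher windows, though 33 lower and 35 higher had an unadjusted p under 0.05 (35 and 38 without the block). Deviations of same-numbered libraries correlated between -0.0115 and 0.00545, so the numbers gave no sign of pairing. The causes of these shifts were not tested. The weakest listed lines of the stretch held 8 to 12 cuts, and depth gives no bound for a missing site, since the lists end at a p that depends on the local background.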
